A study of Rattus norvegicus with 6 samples.

Results

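After scaling, 294 of 14145 circular RNA (circRNA) probes rose at least 3-fold without overlap in rat lung with acute respiratory distress syndrome (ARDS). These 294 circRNAs, 2.58% of those that could have been chosen, are described here. Members were taken from the scanner files by 4 conditions. The probe had to be well above background on all 6 arrays, which 11701 probes were. It had to lie outside the 300 brightest of normal lung, which left 11401 eligible probes. Its mean in ARDS lung had to be at least 3-fold above its mean in normal lung, and its lowest ARDS value above its highest normal value. Of the eligible probes 423 met the fold, and 129 of these were left out because the groups overlapped. The conditions use the ARDS against normal contrast itself, so the difference between the groups is given below as a description, with no test.

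The lungs came from adult male rats, 3 of them normal and 3 with ARDS induced by lipopolysaccharide, an endotoxin from the bacterial cell wall. Each array was taken as 1 rat, since the labels give each array its own rat number. All 6 total RNA samples were digested with RNase R before labelling with Cy3. The strain, the dose of lipopolysaccharide and the time after it are not given in the sources used here.

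A circRNA forms when the splicing machinery joins the end of an exon back to its own start or to that of an upstream exon. The closed ring has no free ends, so exonucleases such as RNase R, which degrade linear RNA, leave most of it intact, and circRNAs often outlast the messenger RNAs of the same gene. ARDS is an acute inflammatory injury in which the barrier between alveoli and capillaries becomes leaky and neutrophils and other leukocytes enter the airspaces. The tissue was measured in bulk, so more cells of a type and more circRNA per cell cannot be told apart. The files pair the probe numbers with no circRNA name, host gene, sequence or position, and the identity of the members is therefore not analysed here. None of 27 marker genes of lung and blood cell types had a matched linear probe, so the tissue could not be checked against markers. The circRNA with the largest rise and the next are named by probe number, and the others are referred to by their rank in size of rise.

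ARDS arrays were dimmer as a whole, and the rising circRNAs went against that shift. Values were scaled by subtracting each array's 75th percentile of log2 circRNA signal, which was 7.59, 7.22 and 7.39 on normal replicates 1 to 3 and 5.99, 6.66 and 5.82 on ARDS replicates 1 to 3. ARDS replicate 3 alone belongs to a second scan, so for this array the rat and the scan cannot be told apart. The median unscaled signal of the 294 circRNAs was 62.9, 46.3 and 47.8 on the normal arrays and 71.1, 91.9 and 138 on the ARDS arrays. Their median was thus higher on each ARDS array than on any normal array. The median of all 11401 eligible circRNAs moved the other way, from 95.7, 74.3 and 83.2 to 31.6, 50.3 and 28.8. The 294 circRNAs carried 1.45%, 1.25% and 1.1% of all circRNA signal on the normal arrays and 3.30%, 2.35% and 4.36% on the ARDS arrays, or 1.27% ± 0.177 (SD, n = 3) against 3.34% ± 1.01 (SD, n = 3). The members were chosen on these same signals. Their higher median and larger share on ARDS arrays thus follow largely from the conditions and are given as a description.

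**Figure D1:**
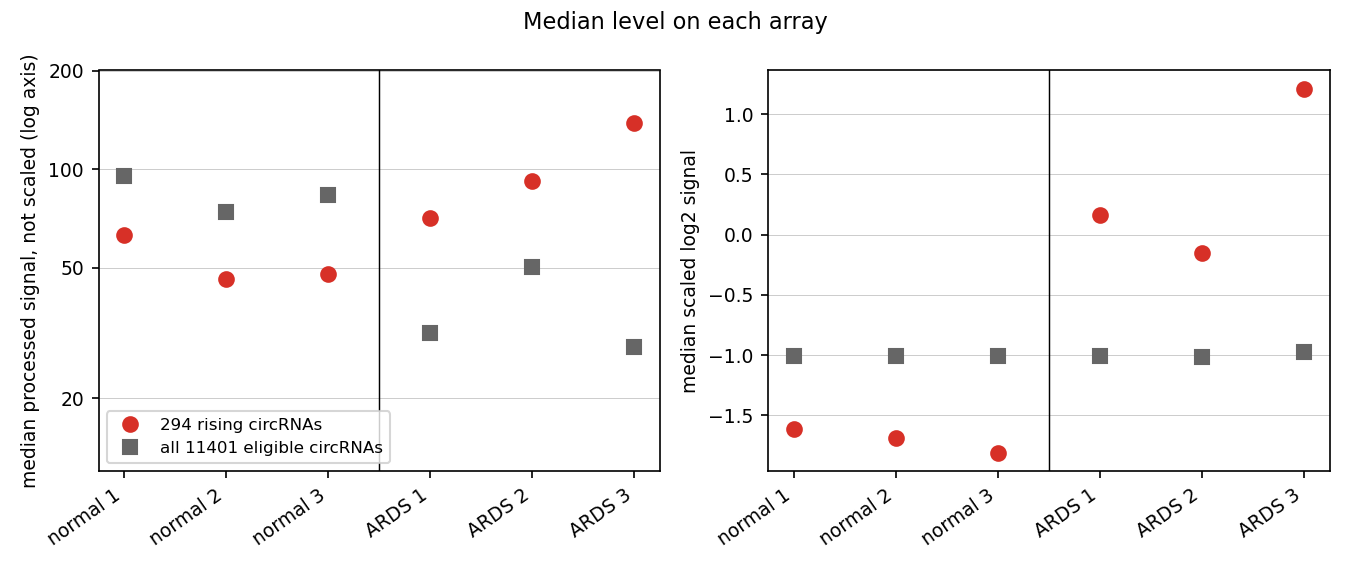
Median level of the 294 rising circRNAs (red circles) and of all 11401 eligible circRNAs (grey squares) on each array, as unscaled processed signal on a log axis (left) and as scaled log2 signal (right). On the left the rising circRNAs go from 62.9, 46.3 and 47.8 on normal arrays to 71.1, 91.9 and 138 on ARDS arrays while the eligible circRNAs fall. The rising circRNAs were chosen on these signals.

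The median rise of the 294 circRNAs was 3.59-fold, against a median of 1.03-fold over all eligible circRNAs. The middle 50% of the members lay between 3.21-fold and 4.46-fold, 91 reached 4-fold, 18 reached 8-fold and 4 reached 16-fold. The smallest rises inside the threshold were 1.586, 1.587 and 1.588 on the log2 scale. Non-overlapping circRNAs just outside it stood at 1.585, 1.585 and 1.584, so the threshold falls within a continuous range of values. The distance from the highest normal array to the lowest ARDS array had a median of 1.90-fold. It reached 2-fold for 126 members and was under 1.2-fold for 22. The same conditions with the sign turned were met by 148 circRNAs that fell, and 12 of the 300 brightest circRNAs left out also met the fold and did not overlap. A further 53 circRNAs were well above background on all 3 ARDS arrays but not on all 3 normal arrays, and 16 of these met the fold without overlap.

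ASCRPR009085, at rank 1, was a dim circRNA in normal lung and a bright one in ARDS lung. Its unscaled signal was 57.3, 41.4 and 37.5 on normal replicates 1 to 3 and 1741, 1034 and 421 on ARDS replicates 1 to 3. All 3 ARDS arrays stood far above the normal arrays, ARDS replicate 1 highest and ARDS replicate 3 lowest. Among the eligible circRNAs of each array it moved from percentiles 33.0, 29.9 and 24.8 to 99.1, 98.2 and 98.3, a placing that subtracting a percentile cannot change. The scaled rise was 48.3-fold, and its lowest ARDS array was 25.03-fold above its highest normal array.

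ASCRPR008416, at rank 2, was already bright in normal lung. Its unscaled signal was 494, 308 and 343 on the normal arrays and 8538, 5437 and 5329 on the ARDS arrays. In percentiles it moved from 89.6, 87.5 and 86.7 to 99.98, 99.89 and 100, so it was the brightest of all eligible circRNAs on ARDS replicate 3. The scaled rise was 39.8-fold and the groups were 20.9-fold apart at their closest.

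The circRNA at rank 3 rose 31.9-fold, from signals of 92.6, 61.3 and 69.3 on normal arrays to 741, 2202 and 588 on ARDS arrays. Here ARDS replicate 2 was the highest, which made it unusual, since that array was the highest of the ARDS arrays for 26 of the 294 members (8.84%, against 23.9% of eligible circRNAs). Its lowest ARDS array lay 21.6-fold above its highest normal array.

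Ranks 4 and 5 rest on fewer spots and are less certain than their size implies. The scanner marked the spots of the circRNA at rank 4 on ARDS replicates 2 and 3 as outliers, so its 16.4-fold rise compares ARDS replicate 1 alone with the normal arrays. Its signals were 1822, 163 and 159 on normal arrays and 2231, 508 and 640 on ARDS arrays, the last pair being the marked spots. With these spots included its difference was 2.55 rather than 4.04 on the log2 scale and the groups overlapped. At rank 5 the spots on normal replicate 1 and ARDS replicate 3 were left out, and the log2 difference was 3.96 without them and 2.94 with them, with no overlap either way. Left-out spots also touched ranks 22 and 25, which overlapped once the spot was included, and rank 134, which fell to 1.58, below the threshold.

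**Figure D2:**
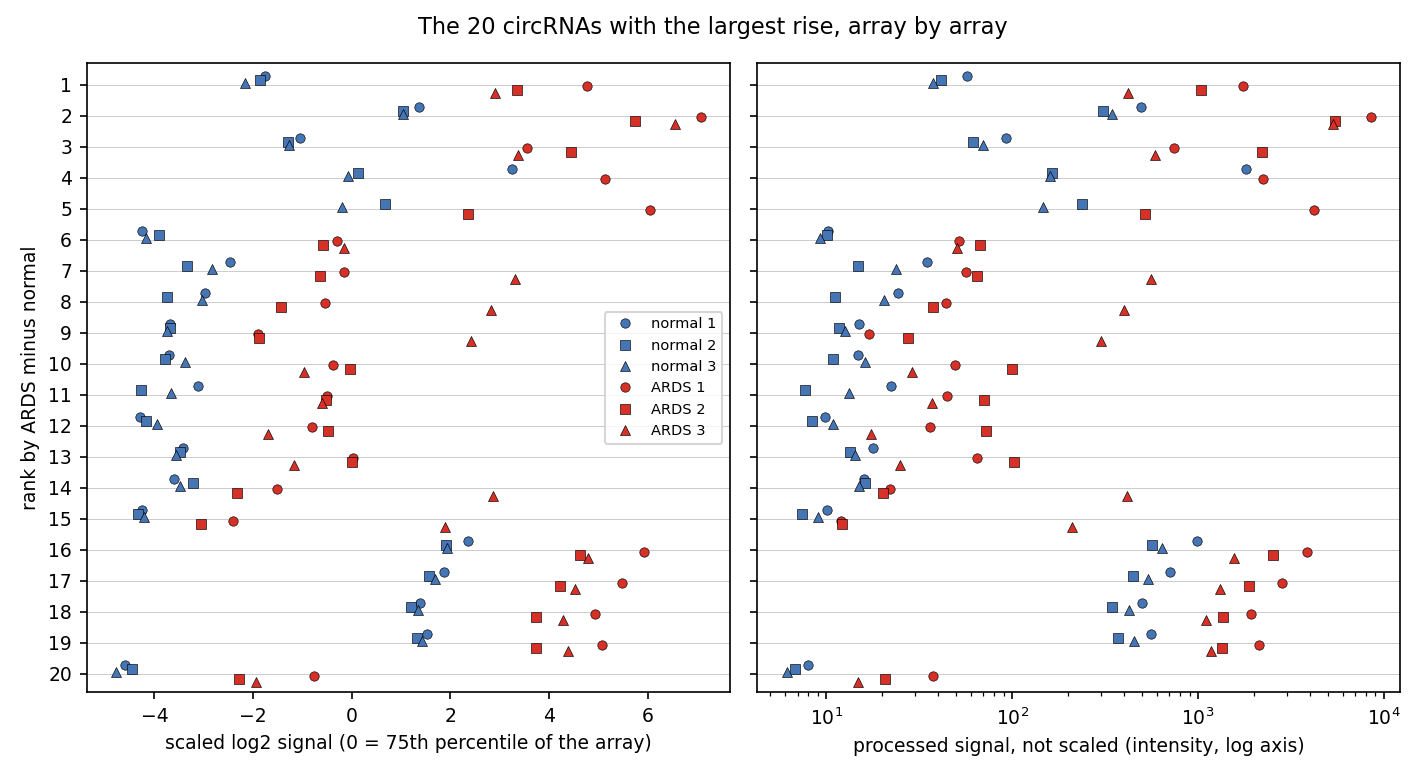
The 20 circRNAs with the largest rise, with each array as 1 point: normal in blue and ARDS in red, replicates 1, 2 and 3 as circles, squares and triangles. The left panel gives the scaled log2 signal and the right panel the unscaled processed signal on a log axis, with spots marked as outliers left out. Red points lie to the right of all blue points in every scaled row, and ranks 7, 8, 9, 14 and 15 have ARDS replicate 3 far to the right of the other ARDS arrays.

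Several of the largest rises began near the bottom of the range in normal lung. The circRNA at rank 6 had signals of 10.2, 10.03 and 9.28 on normal arrays and 51.7, 67.4 and 50.7 on ARDS arrays. This is a rise of 14.0-fold, 11.4-fold and 15.5-fold above the normal mean after scaling. It moved from percentiles between 1.18 and 2.06 to percentiles between 59.7 and 68.6. Rank 11 rose almost evenly in the 3 ARDS rats, by 9.05-fold, 8.99-fold and 8.46-fold on ARDS replicates 1 to 3. Ranks 10, 12 and 13 rose 8.998-fold, 8.80-fold and 8.62-fold, each with ARDS replicate 3 lowest.

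Ranks 16 to 19 were bright and had similar profiles. The signals at rank 16 were 985, 566 and 640 on normal arrays and 3841, 2525 and 1567 on ARDS arrays. Its rise above the normal mean was 14.4-fold on ARDS replicate 1, 5.93-fold on replicate 2 and 6.61-fold on replicate 3. Rank 17 gave 13.6-fold, 5.68-fold and 7.07-fold on the same arrays. Rank 18 gave 12.3-fold, 5.38-fold and 7.85-fold, and rank 19 gave 12.5-fold, 4.96-fold and 7.74-fold. All 4 thus rose most on ARDS replicate 1 and least on ARDS replicate 2, as the circRNA at rank 2 did.

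A further set rose mainly on ARDS replicate 3. The circRNA at rank 7 had signals of 34.6, 14.8 and 23.6 on normal arrays, 56.6 and 64.6 on ARDS replicates 1 and 2 and 562 on ARDS replicate 3. At rank 9 the normal signals were 14.9, 11.6 and 12.6, and the ARDS signals 16.9, 27.5 and 301. Relative to the normal mean, rank 9 rose 3.47-fold and 3.53-fold on ARDS replicates 1 and 2 and 69.6-fold on replicate 3. Ranks 8, 14 and 15 behaved alike, with 67.8-fold, 79.0-fold and 71.6-fold on ARDS replicate 3. At rank 15 the signals of 12.1 and 12.2 on ARDS replicates 1 and 2 lay close to the 10.1 of normal replicate 1 before scaling.

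**Figure D3:**
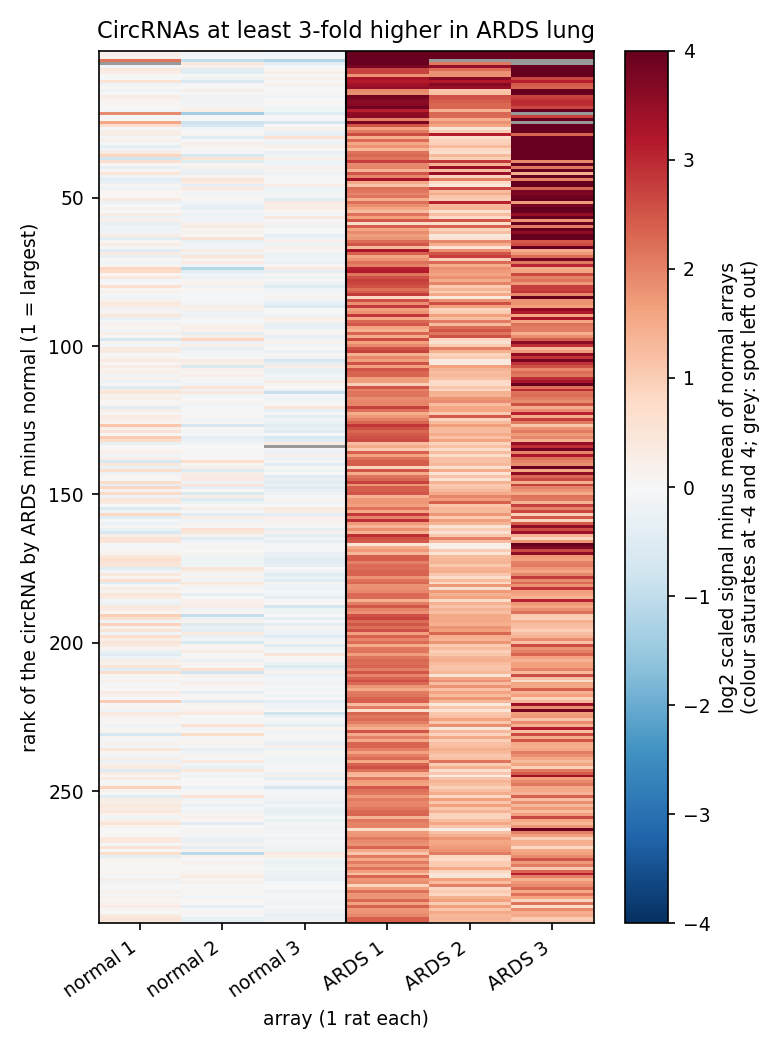
Scaled log2 signal of each of the 294 circRNAs (rows, ordered by size of rise) on each array (columns), minus its own mean over the normal arrays. Red is above and blue below that mean, colours saturate at 4 and -4, and grey marks spots left out. ARDS replicate 2 is the palest ARDS column, and ARDS replicate 3 holds most of the saturated rows.

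The rise was not shared evenly among the ARDS rats. The median member stood 4.32-fold above its normal mean on ARDS replicate 1, 2.46-fold on ARDS replicate 2 and 4.20-fold on ARDS replicate 3. ARDS replicate 2 was the lowest of the 3 for 208 members (70.7%, against 35.8% of eligible circRNAs). The spread between ARDS arrays was wider than that between normal arrays, with a median SD of 0.67 against 0.25 on the log2 scale. For all eligible circRNAs these medians were 0.38 and 0.21. Among the normal rats replicate 1 was the highest for 166 members (56.5%, against 32.1% of eligible circRNAs).

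Taking each ARDS array by itself, 43 members were at least 3-fold above the normal mean on all 3 arrays. They were also the only eligible circRNAs to do so (0.377%). Such a circRNA always meets the fold condition, so this follows largely from the conditions. The 43 had a median rise of 5.44-fold and held 16 of the 20 largest rises. A further 128 reached 3-fold on ARDS replicates 1 and 3 but not on replicate 2 (43.5% of members, against 1.97% of eligible circRNAs), and 37 on replicates 1 and 2 but not on 3 (12.6% against 2.33%). On ARDS replicate 3 alone 42 did (14.3% against 2.43%), and on ARDS replicate 1 alone 36 (12.2% against 8.24%). A left-out spot was counted as not reaching 3-fold. Ranks 5, 22 and 25, counted on replicates 1 and 2, thus had no value on replicate 3. Rank 4, counted on replicate 1 alone, had none on replicates 2 and 3. On replicates 2 and 3 together 6 did (2.04% against 0.132%), and on replicate 2 alone 2 (0.68% against 0.298%). The conditions favour circRNAs high on several arrays, so these shares are a description. Those 42 stood a median of 11.8-fold above the normal mean on ARDS replicate 3 and 2.61-fold and 1.69-fold on ARDS replicates 1 and 2.

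ARDS replicate 3 was at least 4-fold above the mean of the other ARDS arrays for 62 members (21.1%), against 1.07% of eligible circRNAs. ARDS replicate 1 led by as much for 1 member (0.34%), the one at rank 5, against 1.58% of eligible circRNAs, and ARDS replicate 2 for 0 members, against 0.0439%. The 62 were dim, and 39 of them lay among the dimmest 2851 of the eligible circRNAs by normal level and 0 among the brightest 2850. Their median signals were 29.0, 22.6 and 26.9 on normal arrays, 31.5 and 35.9 on ARDS replicates 1 and 2, and 222 on ARDS replicate 3. Whether the separate scan had a part in this was not tested. On ARDS replicates 1 and 2, both of the first scan, the 62 stood a median of 3.02-fold and 1.74-fold above their normal mean, against 18.2-fold on ARDS replicate 3.

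**Figure D4:**
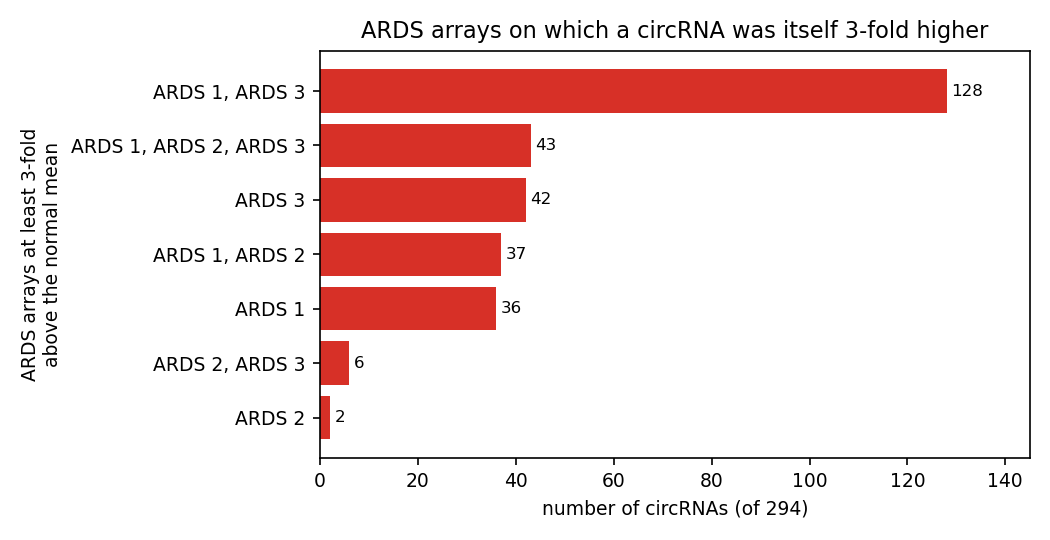
Number of the 294 circRNAs (horizontal bars, axis from 0) by the ARDS arrays on which the circRNA was itself at least 3-fold above its normal mean. The largest class, 128 circRNAs, reached 3-fold on ARDS replicates 1 and 3, and 43 reached it on all 3. A left-out spot is counted as not reaching it.

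Rising circRNAs came from all levels of normal expression but most often from the lowest. When the eligible circRNAs were split into 4 equal groups by their mean scaled level in normal lung, the dimmest held 128 members (4.49% of that group). The next groups held 44 (1.54%) and 50 (1.75%), and the brightest held 72 (2.53%). The level in normal lung is also part of the difference the conditions used, so these shares are a description. The median signal of the 128 dim members was 17.9 in normal and 39.3 in ARDS lung, while that of the 72 bright members was 441 and 694. The median rise of the members was 3.64-fold, 3.61-fold, 3.67-fold and 3.47-fold from the dimmest group to the brightest, values that the 3-fold threshold holds close together. Of the 72 bright members 57 were highest on ARDS replicate 1 and 13 on ARDS replicate 3, whereas of the 128 dim members 53 were highest on replicate 1 and 62 on replicate 3. All eligible circRNAs of the dimmest group had a median scaled difference of 0.57 on the log2 scale and those of the brightest -0.33, so the background against which these rises are read differed by level.

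Arrays that took no part in the choice were then read, by applying the same conditions to 5 arrays and taking the value on the array left out. The 6 choices share arrays with each other and are given as a description. Each left-out value is set against the other group, whose arrays did take part in the choice. That side of the difference is therefore selected for the chosen circRNAs and not for the eligible ones. On ARDS replicate 1, 208 of the 209 circRNAs chosen without it (99.5%) lay above all normal arrays, against 44.4% of the circRNAs eligible on the other 5 arrays. Their median difference on that array was 3.49-fold. On ARDS replicate 2, 544 of 619 did (87.9%, against 37.5%), with a median of 1.97-fold. On ARDS replicate 3 the share was 308 of 674 (45.7%, against 39.9%) with a median of 1.39-fold. Of these 674, 234 lay below the normal mean (34.7%, against 48.2% of those eligible).

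Of the circRNAs chosen without ARDS replicate 3, 116 (17.2%, against 4.75% of those eligible) were themselves 3-fold above the normal mean on it. Of the 209 chosen without ARDS replicate 1, 138 (66.0%, against 12.7% of those eligible) were 3-fold above the normal mean there. Without ARDS replicate 3 the conditions were met by 678 circRNAs, of which 191 were among the 294. Without ARDS replicate 2 they were met by 620, of which 282 were among them, and without ARDS replicate 1 by 209, of which 188 were.

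On normal replicate 3, 244 of 245 circRNAs chosen without it (99.6%) lay below all ARDS arrays, against 37% of those eligible, and on normal replicate 2, 317 of 344 did (92.2%, against 36.5%). On normal replicate 1 the share was 378 of 556 (68.0%, against 34.4%). The median differences were 4.12-fold, 3.26-fold and 2.30-fold. Normal replicate 1 thus stood nearest to the ARDS arrays for circRNAs of this kind. Without it the conditions were met by 557 circRNAs, 277 of them among the 294.

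**Figure D5:**
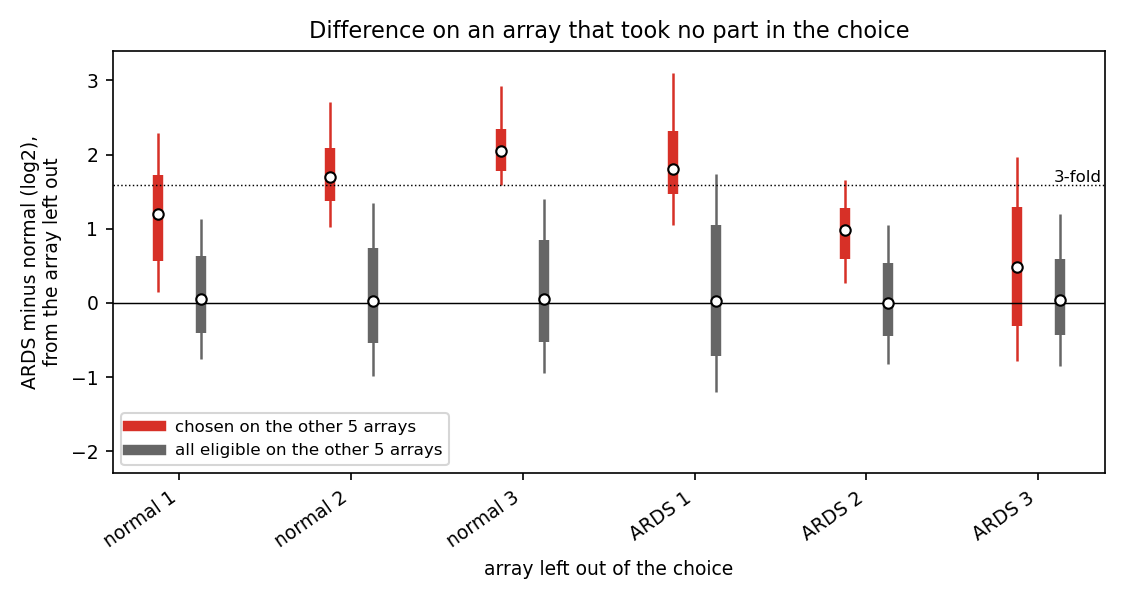
Difference between ARDS and normal lung (log2, vertical axis) read from 1 array that took no part in choosing the circRNAs, for the circRNAs chosen on the other 5 arrays (red) and all circRNAs eligible on them (grey). The arrays of the other group, against which it is read, did take part in the choice. White points are medians, thick bars the middle 50% and thin lines the 10th to 90th percentiles of circRNAs, and the dotted line marks 3-fold. The chosen circRNAs have medians of 1.204, 1.70 and 2.04 on normal replicates 1 to 3 and 1.80, 0.98 and 0.48 on ARDS replicates 1 to 3.

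In all, 92 of the 294 circRNAs met the conditions in each of the 6 choices made on 5 arrays. They had a median rise of 4.495-fold and included 17 of the 20 largest rises. Of the other 3, rank 4 was lost without ARDS replicate 1, and ranks 14 and 15 were lost without ARDS replicate 3. Of the 92, 42 were also at least 3-fold above the normal mean on each ARDS array. The members had already met the background and overlap conditions on all 6 arrays, so a larger rise is kept more readily. These counts reuse the values that chose the members and are a description.

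How large the rise was depended on the scaling. Without scaling, all 294 circRNAs still had a higher mean in ARDS lung, against 10.2% of eligible circRNAs, but the median rise was 1.52-fold and 60 reached 2-fold. The scaling shifts all circRNAs with 6 spots alike, and a 3-fold scaled rise then always leaves a higher unscaled mean, so the count of 294 follows from the conditions. The groups did not overlap without scaling for 78 members, against 0.781% of eligible circRNAs. With scaling 24.5% of eligible circRNAs had no overlap in this direction.

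Percentile rank within each array gives a reading without scaling. The median percentile of the members among the eligible circRNAs was 32.2 in normal lung and 73.7 in ARDS lung. These medians are taken separately, and the median rise of a member was 27.9 percentile points. The lowest ARDS percentile was above the highest normal one for 276 members (93.9%, against 20.7% of eligible circRNAs). From below the median in normal lung to above it in ARDS lung 96 members moved. The same was not counted over all eligible circRNAs, so nothing is read from the 96. The values behind these percentiles are the ones the conditions used.

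With quantile normalization the conditions were met by 206 circRNAs, 205 of them among the 294, and with the array median by 260, all among them. With no scaling 22 met them, and with normexp background correction (offset 50) and quantile normalization together 29 did, all among the 294. There were 14 circRNAs that met the conditions under all 5 of these settings, with ranks from 1 to 23. Their signals had a median of 228 in normal and 1152 in ARDS lung, and their rises ran from 7.38-fold to 48.3-fold. ASCRPR009085 and ASCRPR008416 were among them, as were the bright ranks 16 to 19 and ranks 7, 8 and 14, which rose mainly on ARDS replicate 3. Ranks 3, 4, 5, 21 and 23 completed the set, with the left-out spots of ranks 4 and 5 as given above.

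In limma's test of all 13247 circRNAs well above background on at least 3 arrays, 236 of the 294 passed as higher in ARDS lung (Benjamini-Hochberg adjusted p under 0.05). Of all circRNAs tested 11.5% did, and nothing is read from this comparison because the members were chosen on the same contrast. Leaving out an array lowered the count to 63 (normal replicate 1), 3 (normal replicate 2 or 3) and 87 (ARDS replicate 1). It was 254 and 257 when ARDS replicates 2 and 3 were left out.

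The authors' deposited table of log2 values held all 294 circRNAs. In the authors' deposited table their median difference was 1.37 on the log2 scale, between 0.33 and 4.49. There 237 were at least 2-fold higher in the ARDS columns (against 10.1% of its 13438 circRNA probes), 78 at least 3-fold (against 1.56%), and 274 did not overlap (against 43%). The ARDS columns averaged above the normal columns for 100% of the probes in the authors' deposited table, so a higher value there says nothing of direction. For the 5868 eligible circRNAs that were lower in ARDS lung in the quantile-normalized scanner values, deviations from the group means in the authors' deposited table correlated at 0.299 with the same arrays and at 0.933 with the groups' columns exchanged. Over the 294 members the same correlations were 0.977 and 0.0289. Both sources come from the same 6 arrays, so the table is no second measurement.

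Some members were neighbours in probe number, a relation the conditions did not use. Of the 238 members whose next number was an eligible probe, 20 were followed by another member (8.40%), whereas 213 of 8985 other eligible circRNAs were followed by one (2.37%). No test was made of this difference. In such pairs 39 members took part. What consecutive numbers share is not given in the files.

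Some pairs were close in profile although their spots lay apart on the array. Ranks 18 and 19 had consecutive numbers and spots in rows 89 and 125. Their signals were 499, 346 and 426 against 556, 373 and 450 on normal arrays, and 1935, 1354 and 1098 against 2132, 1352 and 1173 on ARDS arrays. Ranks 7 and 8 were another pair, in rows 80 and 149, and both rose mainly on ARDS replicate 3. Ranks 12 and 10 formed a further pair, in rows 40 and 76. In 9 of the 20 pairs (45%) the rises of both circRNAs were within 2-fold of each other on every array with a value. Of all 9223 eligible pairs of consecutive numbers 33.7% were. Both circRNAs of a member pair were chosen for a rise, unlike those of the other pairs, so nothing is read from these shares. Other pairs differed. At ranks 51 and 226 the first rose on ARDS replicate 3 to 77.0 from 9.31 and 10.8 on ARDS replicates 1 and 2, while the second fell there to 100 from 243 and 257.

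The scanner's own error estimate and the position of the spots were compared as a description. The conditions used neither directly, but they did use the signal, the background call and the outlier marks. On normal replicates 1 to 3 the median error was 10.12%, 10.22% and 10.21% of the signal for members. For eligible circRNAs it was 10.05%, 10.09% and 10.07% there. On ARDS replicates 1 to 3 it was 10.10%, 10.07% and 10.03% for members and 10.49%, 10.21% and 10.60% for eligible circRNAs. Members thus had the slightly larger error on normal arrays and the slightly smaller on ARDS arrays. This error is a share of the signal on which the members were chosen, so nothing is read from the difference. Members made up 2.38%, 2.43%, 2.93% and 2.59% of the eligible circRNAs in the 4 quadrants of the array surface, against 2.58% over the whole array. No circRNA spot was saturated on any array.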

How the data were processed

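Lung RNA of 6 rats was hybridised to 1-colour circRNA arrays. Per the file headers, spots were extracted with version 11.0.1.1 of Agilent Feature Extraction. Per the file headers, the processed signal the authors deposited is an intensity after background subtraction and spatial detrending, with no scaling between arrays. The table the authors deposited for the whole series holds log2 values. The tool named for them in the submitters' processing notes is limma, with no version. It was used as an alternative only, and its processing is not given in the sources used here.

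Each circRNA probe has 1 spot. Spots marked as outliers by the scanner were left out, 1 to 10 per array, so a mean over the remaining arrays was used for them. From each log2 signal, the 75th percentile over 14145 circRNA probes of its own array was subtracted. The groups were fitted with limma 3.58.1 in R 4.3.3 (lmFit and eBayes, two-sided, Benjamini-Hochberg over 13247 circRNA probes well above background on at least 3 arrays), after the procedure was tested on simulated data. Alternatives changed the scaling, background correction, filters, thresholds, blocks and the arrays included. Precision is limited by having 3 arrays per group, and p-values measure only the spread between these arrays.

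The members, lists and tests were chosen with earlier results of these data known. Named by number are the 2 members with the largest rise. Host gene and cell marker lists could not be used, since probes are not paired with genes. Normexp, followed by quantile normalization, ran on the median signal, since the files hold no mean signal. Scan, not slide, was used as a block. There were 0 columns of other samples.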

Additional observations from a re-analysis of the deposited data

How the results depend on the processing

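The number of members was within 1.5 times of 294 under 11 of 18 alternatives. It was 22 with no scaling, 29 with normexp (offset 50) and quantile normalization, a joint alternative called normexp-quantile here, 1455 at a 2-fold threshold and 91 at a 4-fold threshold, and with 1 array left out it ran from 209 to 678. The members past the limma threshold numbered 30 with no scaling and 136 with normexp-quantile, and 3 to 257 with 1 array left out. Their median log2 difference was 0.60 with no scaling, 1.13 with normexp-quantile and 1.37 in the authors' deposited table. With 1 array left out it ran from 1.73 to 2.14. ASCRPR009085 stood at 4.35 with no scaling and 3.74 with normexp-quantile, and ASCRPR008416 at 4.59 with quantile normalization, 4.07 with no scaling and 4.28 with normexp-quantile. CircRNAs chosen without ARDS replicate 3 had a median of -1.85 there with no scaling, opposite in sign to the 0.48 with scaling. That array had the lowest 75th percentile of signal. With the replicate number as a replicate block 257 members passed. The deviations of same-numbered arrays correlated at 0.589, -0.229 and 0.138 for replicates 1 to 3 over 13226 circRNAs, and those of normal replicate 2 and ARDS replicate 3 at 0.552, so the numbers were not taken as pairs. How precision depends on signal over background was not measured, and 128 of the 294 members were among the dimmest eligible circRNAs.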
